A study of Arabidopsis thaliana with 6 samples.

Results

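The genes described here are the berberine bridge enzyme-like (BBE-like) oxidase genes of a tandem cluster on chromosome 5 of Arabidopsis thaliana, AT5G44360, AT5G44380, AT5G44390, AT5G44400, AT5G44410 and AT5G44440. They were matched by locus to probe sets named with that gene alone, and each of the 6 has 1 such probe set among the 22746 on the array that are not controls. The genes were chosen by their family and position and also on their measured log2 differences between the genotypes in an earlier pass over the same arrays, so those differences are given as a description and without a test. The log2 signal is the value deposited for each probe set on each array, and a difference of 1 on that scale is a doubling.

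Shoots of the double mutant pvip1 pvip2 were compared with shoots of the wild type Col-0 on single-colour Affymetrix ATH1 arrays, 3 labelled biological replicates of each genotype. Seedlings of both genotypes were grown on MS agar at 21 °C with 16 h of light and harvested 10 days after germination. Col-0 was stripped of its roots, and the mutant was cut through its vestigial hypocotyl so that it was wounded too. PVIP genes, also known as OBERON genes, encode PHD-finger proteins that act in the formation of meristems. The labels do not name the alleles, and RNA came from whole shoots, in which fewer cells of a type and less RNA per cell cannot be told apart.

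BBE-like proteins are flavin-dependent oxidases that carry their FAD cofactor bound to the protein, and most are secreted. They pass electrons from a sugar or alcohol substrate to oxygen, which gives hydrogen peroxide, or to another acceptor. The family is named for the enzyme of the California poppy that closes the berberine bridge in alkaloid synthesis. In Arabidopsis, which makes no such alkaloids, characterised members oxidise cell wall fragments, monolignols or an indolic intermediate of defence compounds. Within the cluster, AT5G44360 is known as a cellodextrin oxidase, CELLOX2, and AT5G44440 encodes a protein whose crystal structure has been solved. No role is given below for the other 4.

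The arrays were checked first. Correlations between arrays, across probe sets, were 0.976 to 0.988 for arrays of one genotype and 0.932 to 0.962 for arrays of different genotypes. OBE1, a PVIP gene under its other name, had log2 signals of 2.53 to 2.61 in the mutant. Col-0 replicates 2 and 3 gave 5.08 and 5.17, whereas the array labelled Col-0 replicate 1 gave 2.42, a mutant-like value that conflicts with its label. Across all probe sets that array correlated at 0.976 or more with the other Col-0 arrays and at 0.962 or less with the mutant arrays. The reason for its OBE1 value was not tested. Col-0 replicate 3 had a GAPDH 3' over 5' difference of 2.31, against 0.55 to 1.08 in the other arrays, and a 25S ribosomal RNA control at 10.15, against 5.96 to 7.67. The GAPDH difference was lower by 0.67 in the mutant (two-sided exact permutation p = 0.1, the smallest that 3 against 3 arrays allow), and those of actin and ubiquitin gave exact permutation p values of 1 and 0.3. Fluidics modules with even numbers held every mutant array and those with odd numbers every Col-0 array, so module and genotype cannot be told apart.

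Neighbouring genes of the cluster differed between the genotypes in opposite directions. AT5G44380 and AT5G44390, which lie side by side, were higher in every mutant array than in any Col-0 array, and AT5G44400, the next gene, was lower in every mutant array. AT5G44410, which follows it, and AT5G44360, at the other end, had overlapping values. AT5G44440, the last gene, was lower in every mutant array, but the gap of 0.042 between the closest arrays was smaller than its pooled SD of 0.16. In all, 4 of the 6 genes had genotypes that did not overlap, 2 higher and 2 lower in the mutant, where 32.2% of all probe sets did not overlap (13.4% higher and 18.8% lower).

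**Figure D1:**
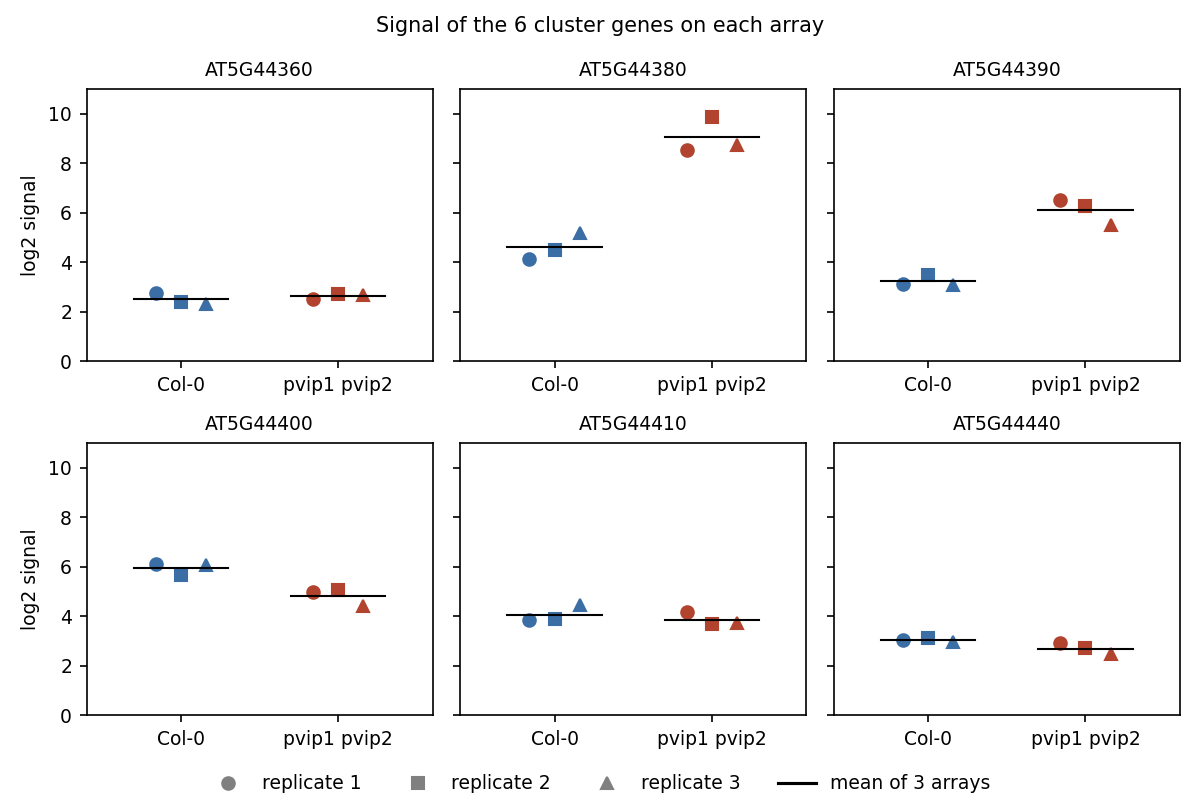
Log2 signal (vertical axis, same scale in all panels) of the 6 cluster genes on each array, with Col-0 in blue and pvip1 pvip2 in red. Marker shapes give the replicate number and lines the mean of 3 arrays. The mutant points of AT5G44380 and AT5G44390 lie far above those of Col-0, those of AT5G44400 lie below, and the other 3 genes differ little.

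AT5G44380 had log2 signals of 8.54, 9.86 and 8.74 in pvip1 pvip2 replicates 1 to 3, and of 4.13, 4.49 and 5.19 in Col-0 replicates 1 to 3. The lowest mutant array stood 3.35 above the highest Col-0 array. Mutant arrays averaged 9.05 ± 0.71 (SD, n = 3) and Col-0 arrays 4.60 ± 0.54 (SD, n = 3), a difference of 4.45 (SE 0.38) or 21.8-fold. Only 24 of the 22746 probe sets had a larger positive difference. The probe set lay near the middle of the signal distribution in Col-0, between the 45.0th and 56.5th percentile of each array, and in the mutant between the 92.7th and 97.3rd. Taken by replicate number the difference was 4.42, 5.37 and 3.55.

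AT5G44390, the next gene along the chromosome, had log2 signals of 6.51, 6.28 and 5.52 in the mutant replicates and 3.14, 3.48 and 3.07 in those of Col-0. All mutant values exceeded all Col-0 values, by at least 2.04. The mean was 6.10 ± 0.52 (SD, n = 3) against 3.23 ± 0.22 (SD, n = 3), a difference of 2.87 (SE 0.28) or 7.32-fold, and 149 probe sets had a larger positive one. In Col-0 the probe set stood between the 28.6th and 36.1st percentile of the arrays, in the dense group of weak signals. The deposited table has no detection calls, so the size of this difference depends on how the authors handled background. With 64 added to the linear signal before the logarithm it was 0.87, and that of AT5G44380 was 2.75.

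AT5G44400 ran the other way. Its log2 signals were 4.98, 5.05 and 4.43 in the mutant replicates and 6.11, 5.68 and 6.08 in those of Col-0. The highest mutant array stood 0.63 below the lowest Col-0 array. Mutant arrays averaged 4.82 ± 0.34 (SD, n = 3) and Col-0 arrays 5.96 ± 0.24 (SD, n = 3), a difference of -1.14 (SE 0.23), so that the signal in Col-0 was 2.20-fold that in the mutant. By replicate number the difference was -1.14, -0.63 and -1.65, negative in each pair. Of all probe sets 548 had a larger negative difference. With 64 added to the linear signal it was -0.45.

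AT5G44410 had signals of 4.15, 3.70 and 3.73 in the mutant replicates and 3.83, 3.87 and 4.47 in those of Col-0. The genotypes overlapped, and the difference of -0.20 (SE 0.23) was smaller than its standard error. The highest value was that of Col-0 replicate 3. The difference was 0.01 without that array and -0.31 when the array labelled Col-0 replicate 1 was omitted.

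AT5G44360, the cellodextrin oxidase gene, had signals of 2.51, 2.72 and 2.67 in the mutant replicates and 2.76, 2.40 and 2.32 in those of Col-0. These lie at the bottom of the scale, between the 7.20th and 19.7th percentile of the arrays, and the genotypes overlapped. The difference of 0.14 (SE 0.13) was within the spread of the replicates. At such weak signals a fall or a small change in transcript level could be missed, so the values do not show that the transcript was absent or unchanged.

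AT5G44440 had signals of 2.91, 2.70 and 2.47 in the mutant replicates and 3.02, 3.11 and 2.95 in those of Col-0. The genotypes did not overlap, but the gap between the closest arrays was 0.042, and the difference of -0.34 (SE 0.13) concerned weak signals, at no more than the 29.4th percentile. With 64 added to the linear signal the difference was -0.033. AT5G44360 and AT5G44440 were also the 2 genes whose mean signal lay below 3.81, the 40th percentile of mean signal over all probe sets, and the other 4 lay above it.

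The median difference of the 6 genes was -0.03, beside -0.05 over all 22746 probe sets, since 3 were positive and 3 negative. Over all of them 3040 probe sets were called between the genotypes by limma at a Benjamini-Hochberg adjusted p under 0.05, which is 13.4% (6.85% higher and 6.51% lower in the mutant). Calls of the 6 genes are not given, because the genes were chosen on the same comparison.

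Leaving out the doubted control arrays moved the larger differences little. Without the array labelled Col-0 replicate 1 those of AT5G44380, AT5G44390 and AT5G44400 were 4.21, 2.82 and -1.06. Omitting Col-0 replicate 3 gave 4.74, 2.79 and -1.08. With Col-0 replicate 2 as the only control array they were 4.56, 2.62 and -0.86, and the spread among Col-0 arrays cannot then be measured. On the first fluidics station they were 4.89, 3.08 and -0.88, and on the second station there was only the pair numbered 3, which allows no test.

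The spread among replicates is a measure that the choice of the genes did not use. AT5G44380 varied most: its pooled SD within a genotype was 0.63, larger than that of 96.7% of all probe sets, beside a median of 0.20 over all. Its high value in the mutant was that of replicate 2 and its high value in Col-0 that of replicate 3. The pooled SD of AT5G44390 was 0.40, larger than that of 87.0% of probe sets, and replicate 3 was the lowest array of each genotype. AT5G44410 (0.31) and AT5G44400 (0.29) were less spread, but still more than 76.9% and 74.1% of probe sets. AT5G44360 (0.18) and AT5G44440 (0.16) lay below the median.

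Arrays with the same replicate number were compared across genotypes by limma's F-test of the number with genotype in the model, a test added after the values had been seen. No difference with the number was detected in the 6 genes (adjusted p from 0.51 to 0.89 over all probe sets, and 0 of 6 at an unadjusted p under 0.05, the lowest being 0.12). With 6 arrays and both factors in the model, such a test can miss real differences. Over all probe sets 132 were called, which is 0.58%.

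The cluster was then set in its chromosomal order, taken from the TAIR10.1 gene table of RefSeq, from which only names and gene order were used. From AT5G44360 to AT5G44440 the table lists 14 loci, the 6 BBE-like genes and 8 others. AT5G44380, AT5G44390, AT5G44400 and AT5G44410 follow each other with nothing annotated between them, and the change of direction falls between the second and the third of these. PHT4;6, a phosphate transporter gene, and a tRNA gene separate AT5G44360 from them. Towards AT5G44440 lie 4 pseudogenes and the defensin genes PDF1.2 and PDF1.2c. Of the 8 other loci only PDF1.2 has a probe set named with it alone, and the other 7 were not analysed here.

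PDF1.2, an antifungal defensin of the jasmonate and ethylene response, was lower in the mutant shoots. Its log2 signals were 4.08, 3.39 and 4.03 in the mutant replicates and 5.33, 5.78 and 4.83 in those of Col-0, without overlap. The change was -1.48 (SE 0.29, limma adjusted p = 0.0125, 0.00755 to 0.0447 over its alternatives), or -0.41 with 64 added to the linear signal. Outside the cluster AT5G44320, AT5G44330, AT5G44350, AT5G44450 and CML43, a calmodulin-like gene, had changes between -0.07 and 0.20, and none was called. AT5G44330 and AT5G44350 had weak signals, with means of 2.47 to 2.74 in each genotype. Of the 12 loci listed as neighbours 6 were measured, with 1 lower and 0 higher (6.51% and 6.85% of all probe sets), and a median change of -0.01.

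**Figure D2:**
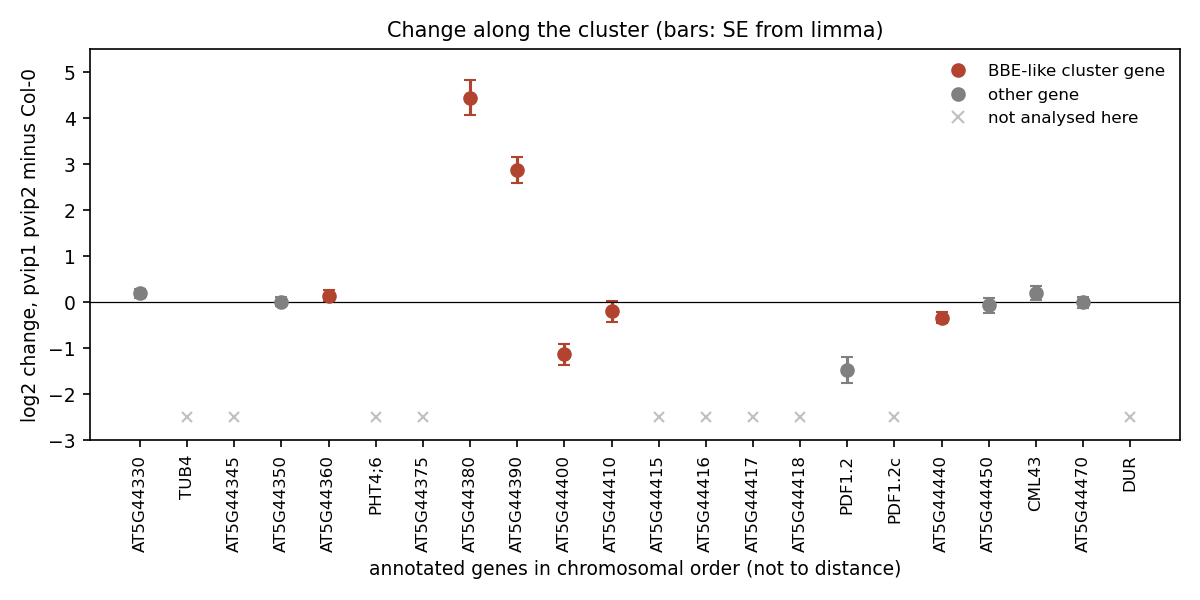
Log2 change between pvip1 pvip2 and Col-0 (vertical axis, bars give the SE from limma) of annotated genes in chromosomal order, with cluster genes in red, other genes in grey and genes not analysed here as crosses. Spacing does not show distance. The changes of 4.45 and 2.87 at AT5G44380 and AT5G44390 stand next to -1.14 at AT5G44400.

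Tandem copies can resemble each other in sequence. The probe sets of all 6 cluster genes carry the suffix that Affymetrix gives to sets designed for a single transcript. Signal passing from one copy to the probes of another was not tested, since probe and gene sequences were not used here.

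For each of the 3 cluster genes whose values span more than 1 log2 unit, the 3 genes with the most similar values were sought among 7318 probe sets with 1 gene and a mean signal over 3.81. Each gene was centred on its own mean, and likeness was the root mean square difference over the 6 arrays. Such likeness is mostly that of the genotype difference on which the cluster genes were chosen, and it is given as a description. Because likeness was scored over the 6 arrays, a similar order of arrays within a genotype is partly built into the choice. Those closest to AT5G44380 were CYP71B23, a cytochrome P450 gene, at a root mean square difference of 0.26, ATPMEPCRB, a pectin methylesterase gene, at 0.30, and AT1G52200 at 0.31. CYP71B23 had signals of 8.71, 9.43 and 8.78 in the mutant replicates and 3.80, 4.58 and 5.47 in those of Col-0. As for AT5G44380, the highest mutant array was replicate 2, the highest Col-0 array was replicate 3, and the lowest was the array labelled Col-0 replicate 1. ATPMEPCRB followed the same order of arrays within Col-0, and its mutant arrays stood at 7.86, 9.08 and 8.22, again with replicate 2 the highest.

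Closest to AT5G44390 were AT4G23680 (0.32), AT5G38780 (0.33) and AT3G22620 (0.33). AT4G23680 stood at 9.94, 10.25 and 9.19 in the mutant replicates and at 7.44, 7.82 and 7.06 in those of Col-0. AT5G38780 stood at 6.33, 5.85 and 5.21 in the mutant and at 3.51, 3.26 and 3.47 in Col-0. Unlike AT5G44390, the first was highest in mutant replicate 2, and the second was lowest in Col-0 replicate 2. Closest to AT5G44400 were AT4G33400 (0.10), AT2G45340, a leucine-rich repeat receptor kinase gene (0.12), and AT1G33170 (0.13). AT4G33400 stood at 5.49, 5.58 and 5.18 in the mutant and at 6.62, 6.16 and 6.50 in Col-0, so that replicate 3 was the lowest mutant array and replicate 2 the lowest Col-0 array, as for AT5G44400. The distances are smallest for AT5G44400, whose own values span least. They are larger for AT5G44390 than for AT5G44380, although AT5G44390 spans less, so span alone does not order them.

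**Figure D3:**
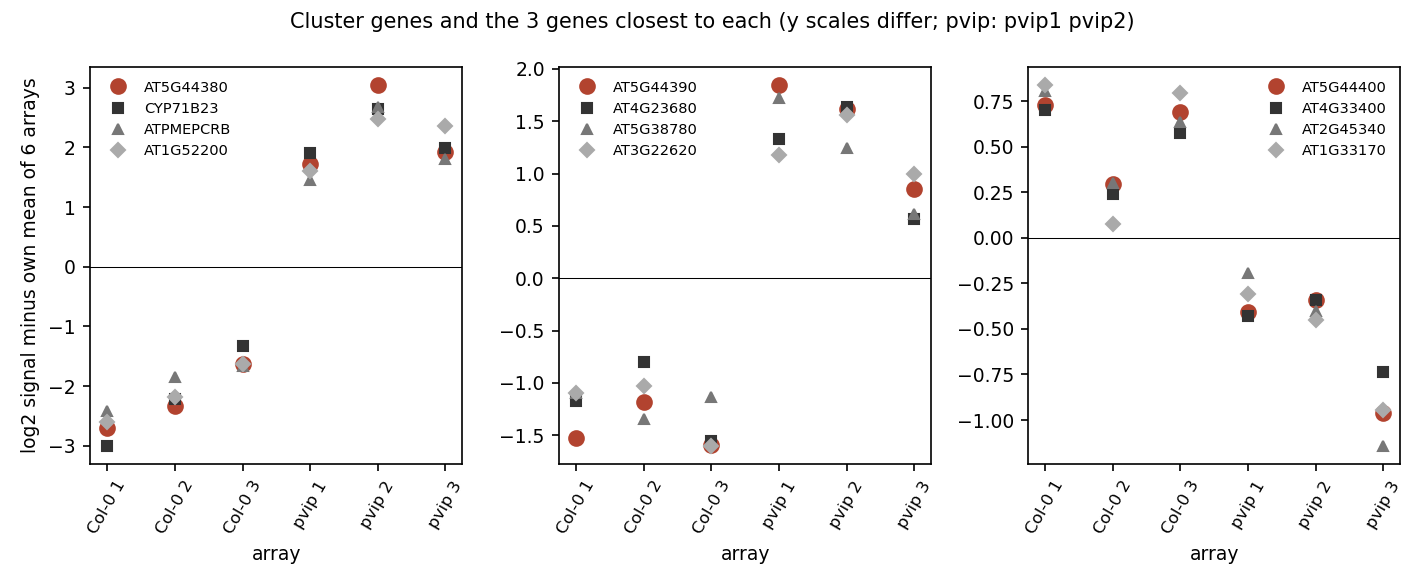
Log2 signal minus each gene's own mean over the 6 arrays (vertical axis, scales differ between panels) on each array, for AT5G44380, AT5G44390 and AT5G44400 in red and the 3 genes closest to each in grey. The closest genes lie at root mean square differences of 0.26 to 0.31, 0.32 to 0.33 and 0.10 to 0.13.

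In the rest of the family the measured genes were higher or did not pass the test. Of 21 further BBE-like loci 16 were measured, and 7 of them rose in the mutant while 0 fell, with a median change of 0.64 and a range from -0.09 to 3.91. The background is 6.85% of all probe sets called higher, and this family was also looked at with earlier results known. The largest rises were those of AT1G30700, at 3.91 (SE 0.37, limma adjusted p = 0.000461), and of AT4G20860, the cellodextrin oxidase gene CELLOX1, at 3.59 (SE 0.27, adjusted p = 0.000143). AT1G26420 rose by 2.87 (SE 0.19, adjusted p = 0.000107). AT1G26380, which encodes the FOX1 oxidase of an indolic defence pathway, rose by 2.44 (SE 0.18, adjusted p = 0.000138). Over their alternatives the adjusted p of these 4 ran up to 0.0104, 0.00524, 0.00707 and 0.0123. Their sizes and order depend on weak signals in Col-0: with 64 added to the linear signal the changes were 1.45, 1.78, 0.66 and 0.64, and AT4G20830, an oligogalacturonide oxidase gene that rose by 1.83, stood at 1.30.

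In the order of the 22 measured BBE-like genes by change, AT5G44380 stood at the upper end and AT5G44400 at the lower, both by the values on which they were chosen. The median was -0.03 in the chromosome 5 cluster, 0.33 over the 11 other genes measured on chromosome 1 and 1.26 over the 4 on chromosome 4. Each of these medians includes genes with weak signals, and the groups were not tested against each other.

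**Figure D4:**
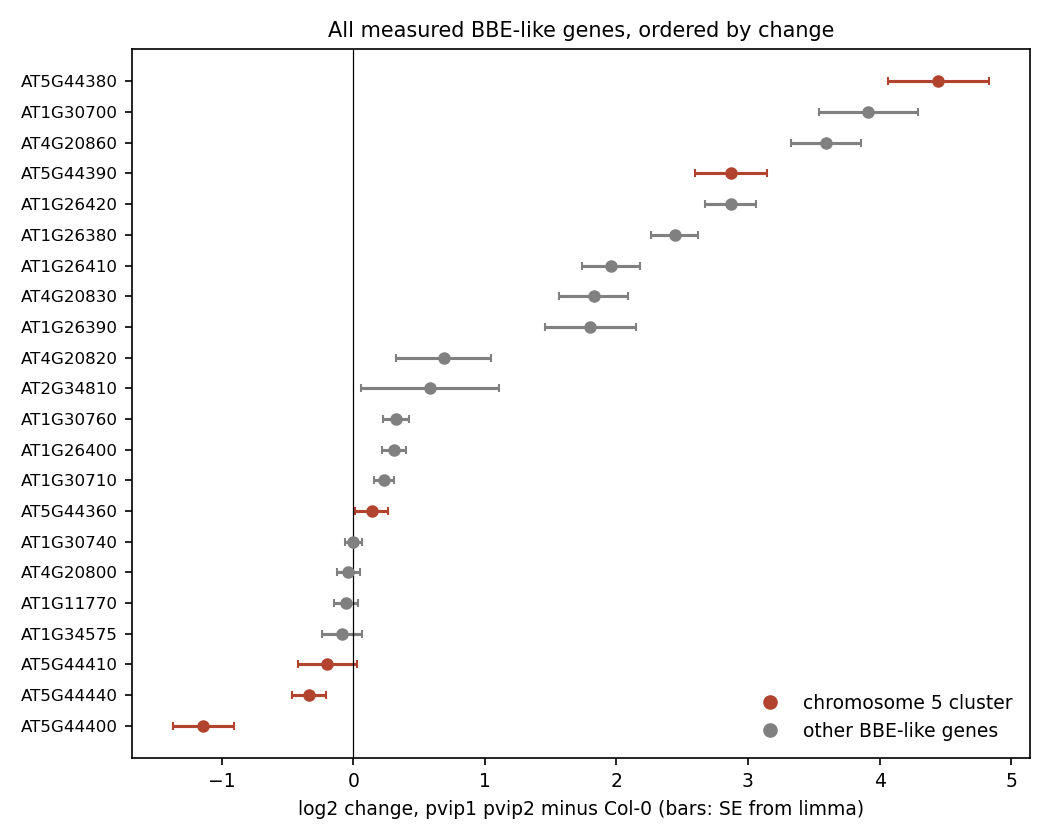
Log2 change between pvip1 pvip2 and Col-0 (horizontal axis, bars give the SE from limma) of the 22 measured BBE-like genes in order of change, with the chromosome 5 cluster in red and the others in grey. The cluster holds both ends of the order, AT5G44380 at 4.45 and AT5G44400 at -1.14.

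Genes around the known substrates of the family were sparsely named on this array. Of 21 loci of monolignol synthesis and glucosylation 5 were measured, with 3 higher, 0 lower (6.85% and 6.51% of all probe sets) and a median change of 1.20. UGT72E1, a monolignol glucosyltransferase, rose by 3.07 (SE 0.17, limma adjusted p = 6.23e-05), and CCR2, a cinnamoyl-CoA reductase induced in defence, by 1.75 (SE 0.23, adjusted p = 0.002), or by 0.38 with 64 added to the linear signal. UGT72E2 rose by 1.20 (SE 0.34, adjusted p = 0.0494), a call lost under 10 of its 16 alternatives (0.0172 to 0.334 over all of them). HCT, of the same pathway, stood at 0.49, with an adjusted p of 0.293 that became 0.0382 when the replicate number was fitted as a block. UGT72E3 stood at -0.01 with signals near 3.2.

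Of 16 loci of cell wall fragment perception and early defence 2 were measured. BIK1, a cytoplasmic kinase of immune receptors, rose by 1.51 (SE 0.19, limma adjusted p = 0.00162, 0.000879 to 0.0564 over its alternatives), and AT1G56145, the gene of the cellooligomer receptor kinase CORK1, stood at 0.69 (SE 0.27, adjusted p = 0.132). Of 18 loci of salicylate and jasmonate defence the 2 measured, PDF1.2 and PDF1.2b, both fell, where 6.51% of all probe sets did. PDF1.2b changed by -0.92 (SE 0.25, adjusted p = 0.0462), a call lost under 9 of 17 alternatives (0.0179 to 0.151) and -0.40 with 64 added to the linear signal, and its probe set has the suffix of sets that can bind related transcripts. No member was named for camalexin and indolic cyanogenic synthesis (8 loci) or for the use and removal of hydrogen peroxide (7 loci).

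Root markers are given because the genotypes were cut differently. Of 10 root loci 3 were measured and 1 rose: PYK10, the main beta-glucosidase of root and hypocotyl ER bodies, was 1.76 higher in the mutant (SE 0.11, limma adjusted p = 9.25e-05). The linear signals of the 3, summed and then put on the log2 scale, came to 11.78 to 11.81 in the mutant arrays. In those of Col-0 they came to 10.01 to 10.09, nearly all of it from PYK10. The root hair expansins EXPA7 and EXPA18 were weak, with changes of 0.33 and 0.21, and their top values (4.29 and 4.23) came from pvip1 pvip2 replicate 2. AT5G44380 was also highest in that array, whereas AT5G44390 was highest in pvip1 pvip2 replicate 1. PYK10 stood at 11.78, 11.76 and 11.80 in mutant replicates 1 to 3, a range of 0.039 that is too narrow to order the arrays. Of 13 loci of the green shoot 4 were measured, and LHCB4.1, RCA, PSAE-1 and PRK had changes from -0.59 to -0.27, none called (PRK had an adjusted p of 0.0156 with the replicate block). The log2 of their summed linear signal was 13.87 to 14.16 in the mutant and 14.23 to 14.41 in Col-0. Each of the 4 had a mean log2 signal over 10 in both genotypes. The part of tissue make-up in the differences of the cluster genes was not tested.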

How the data were processed

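The authors deposited a log2 signal per probe set and array; GCOS is named, without version, in the submitters' processing notes, and the summarising, background correction and normalization are not given in the sources used here. Base 2 was inferred from how far the deposited values reach. Per the file headers, the scanner setting files (unit other) give the fluidics station and module of each array, and nothing else was used from them.

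A model with genotype was fitted to all 6 arrays (limma 3.58.1 under R 4.3.3, moderated by eBayes along the mean signal, with two-sided tests) over 22746 probe sets without a level filter, and a change is pvip1 pvip2 minus Col-0. Precision is limited by how few arrays there are, and the median SE of a change was 0.18. Of these probe sets 13513 are named with 1 gene in the platform annotation, 503 with several, and 8730 are unnamed here. The labels call the replicates biological, and the p values rest on the spread between them. The script was tested on simulated data.

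The cluster genes, lists and rules were chosen with earlier results of these data known. Named were all cluster genes and measured neighbours, up to 4 other BBE-like genes with the largest changes, up to 3 called genes of each other list (or its largest change), and the 3 genes closest to each cluster gene that spans over 1 log2 unit. Further genes of the short lists (HCT, UGT72E3, AT1G56145), AT4G20830 and the tissue markers were named after their values were seen. Pairing was checked on deviations from the genotype mean: arrays of the same number correlated at r = 0.54, 0.31 and 0.12 across probe sets. Arrays of different numbers gave r from -0.41 to 0.23. The highest of these, mutant replicate 2 with Col-0 replicate 3, exceeded that of the pair numbered 3. The replicate number was also fitted as a block. Alternatives were scaling, pseudocount, blocks, array weights, level filters, variance trend and leaving out arrays. Comparisons of protein and promoter sequences were planned but not made, since no sequences were used here.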

Additional observations from a re-analysis of the deposited data

How the results depend on the processing

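The differences of the 6 cluster genes were recomputed under 14 alternatives. Among these the replicate block and the station block cannot move a difference, since the design is balanced. Of the resulting values 80 moved by less than the pooled SD of the gene, and the other 4 all came from adding 64 to the linear signal, which shrinks differences of weak genes by construction: AT5G44380 at 2.75, AT5G44390 at 0.87, AT5G44400 at -0.45 and AT5G44440 at -0.033. Leaving out 1 array at a time gave 4.04 to 4.74, 2.67 to 3.16, -1.28 to -0.94 and -0.44 to -0.22 for these genes, and 0.05 to 0.27 for AT5G44360 and -0.34 to 0.01 for AT5G44410. For AT5G44360 and AT5G44410 the pooled SD (0.18 and 0.31) is larger than the difference itself (0.14 and -0.20), so this measure says little about them. The difference of AT5G44410 was 0.07 on the first station alone, and that of AT5G44360 was 0.011 with 64 added to the linear signal. With the replicate block 4369 probe sets were called over the whole array. Quantile normalization moved none of the 12 genotype means by more than their SD.

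The count of 3040 called probe sets became 946 on the first station alone, 734 with Col-0 replicate 2 as the only control (added after seeing the data) and 1826 with a filter at the 60th percentile, where fewer arrays or probe sets are tested. Leaving out 1 array gave 1773 to 2800 (1880 without pvip1 pvip2 replicate 2, 1855 without pvip1 pvip2 replicate 3, 1773 without Col-0 replicate 2, 1971 without Col-0 replicate 3). With the 60th percentile filter 2 of the other BBE-like genes, AT4G20830 and AT4G20860, were called in place of 7. The rest of the 7 lay below that filter and were not tested, so their calls were not lost in a test. Leaving out 1 array gave 7 to 9 called. Among 618 values of 38 of the other genes that the text or its plots show, 571 kept their side of the threshold, 39 lost and 8 gained a call, and 0 changed direction after a call.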
